A study of Mus musculus with 6 samples.

Results

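The genes described here are 30 genes of homologous recombination and of the Fanconi anaemia pathway, chosen by name from a list of pathway members. All 30 were found among the 20325 genes of the deposited tables, and all 30 passed the filter on low counts that left 13460 genes for testing. They were measured by RNA-seq in mouse neural stem cells (dividing precursors that give rise to neurons and glia) on the way to induced pluripotency. The cells came from postnatal day 4 mice of a mixed 129/Black 6 background. Both groups carry the same alleles: 2 copies of the doxycycline-inducible Stemcca cassette (Oct4, Sox2, c-Myc and Klf4) at ColA1, and 1 copy of the reverse tetracycline activator (rtta) at Rosa26. The cells had been expanded and frozen before use. Both groups received doxycycline until day 7, and fixed cells were then sorted by antibody staining into Nanog+E-cadherin+ cells (n = 3) and Nanog+E-cadherin- cells (n = 3). The comparison asks how the 2 Nanog-positive populations differ. Nothing in the labels ties a replicate to a culture or animal of its own. The p-values therefore reflect the spread among these 6 libraries and nothing wider. Summed CPM of 4 Y-linked genes was 61.7 and 54.1 in the libraries numbered 1 (Nanog+E-cadherin+ first), 1.53 and 0 in those numbered 2, and 71.8 and 172 in those numbered 3, so the spread holds more than technical differences. Per-library values below are listed in the order of replicates 1, 2 and 3.

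Homologous recombination repairs a double-strand break by copying the intact sister chromatid. The MRE11-RAD50-NBN complex with RBBP8 (CtIP) and EXO1 trims the ends to single strands, BRCA1 and BRCA2 with their partners prepare these strands for exchange with the sister, and BLM and the MUS81 nuclease resolve the joined molecules. In the Fanconi pathway a core ubiquitin ligase complex marks FANCD2 and FANCI at a DNA crosslink, and repair then runs through recombination. Because a sister chromatid is needed, many of these genes are expressed most in S and G2 phase, and pluripotent cells, which divide fast, are known for high levels of them.

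Library sizes were 8851110 to 39630916 expected counts, and the 30 genes together held between 6693 and 26778 of them. The gate gene Cdh1 followed the sort at 129 ± 21.4 against 17.4 ± 2.53 CPM (SD, n = 3 each; CPM, the count scaled by the TMM-adjusted library size), and Nanog stood at 117 ± 15.1 against 107 ± 28.3 CPM. All 9 neural stem cell markers listed were above 1 CPM in every library, while none of 6 microglia markers passed the filter. Also above 1 CPM in every library were 7 of 9 neuron, 5 of 6 astrocyte, 4 of 7 oligodendrocyte, 6 of 7 fibroblast and 2 of 6 keratinocyte markers. This level therefore does not single out neural stem cells. Fibroblast markers summed to 317 to 3256 CPM in Nanog+E-cadherin+ and to 411 to 1795 CPM in Nanog+E-cadherin- libraries. Sox2, which is among the 9 neural stem cell markers, is also a gene of the induced cassette. Nanog+E-cadherin- replicates 2 and 3 stood apart: olfactory and vomeronasal receptor genes (1446 in all) summed to 1886 and 1215 CPM there, against 31.9 to 155 CPM in the other 4 libraries. A pair of genes, Vmn1r58 (34.8 to 49.7% of the sum) and Olfr613 (35.4 to 52.6%), held most of it in every library. Without them the sums were 304 and 198 CPM against 3.31 to 46.2 CPM. Fitted values without these 2 libraries are given for the genes whose groups did not overlap and for Bard1, Brip1, Fancf and Fanci. Libraries of equal replicate number deviated together from their group means (r = 0.71, 0.38 and 0.43 across genes), so values within equal numbers, called pairs below, are given too.

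Most of the 30 genes were somewhat higher in the Nanog+E-cadherin+ libraries, but none passed the main test, which called no gene of the 13460. The summed level of the 30 genes was 942, 881 and 821 CPM in the Nanog+E-cadherin+ libraries, and 754, 640 and 703 CPM in the Nanog+E-cadherin- ones, so the groups did not overlap. Fitted log2 fold changes (Nanog+E-cadherin+ over Nanog+E-cadherin-, here and throughout) were above 0 for 25 of 30 genes, against 48.5% of all genes tested. The median was 0.28, against -0.01 over all genes. The main test was edgeR's quasi-likelihood F-test on group alone. In it 0 of the 30 passed an adjusted p of 0.05 (Benjamini-Hochberg over 13460 genes), against 0% of all genes. The smallest adjusted p of any gene in that edgeR test was 0.0608, that of the gate gene Cdh1. The count of 0 therefore does not set the 30 apart from other genes. With the replicate number as a block 0 of the 30 passed, against 0.305% of all genes (0.215% higher and 0.0892% lower). The smallest adjusted p among the 30 was then 0.179, for Exo1. At an unadjusted p under 0.05, the group-only test had 5 of the 30 genes higher and 0 lower, against 1.08% of all genes higher and 1.58% lower. The blocked test had 7 higher and 1 lower, against 5.51% and 5.19%. DESeq2's Wald test with group only gave 5 higher and 1 lower at that p, against 3.64% of all genes in either direction, and limma-voom gave 5 higher and 0 lower, against 1.9%. On either log2 TPM scale limma gave 0. The count of 5 higher in the main test became 4 when Nanog+E-cadherin- replicate 1 (with 1 lower) or its replicate 3 (with 0 lower) was dropped. It became 0 when Nanog+E-cadherin+ replicate 1, its replicate 2 or Nanog+E-cadherin- replicate 2 was dropped, and 1 when Nanog+E-cadherin+ replicate 3 was dropped. It was also 0 when Nanog+E-cadherin- replicates 2 and 3 were both dropped. DESeq2 with the block called 1 of the 30, Exo1 (adjusted p = 0.0217), against 2.26% of all genes in either direction and 1.37% higher. In bulk samples, more cells of a kind and more RNA per cell cannot be told apart.

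**Figure D1:**
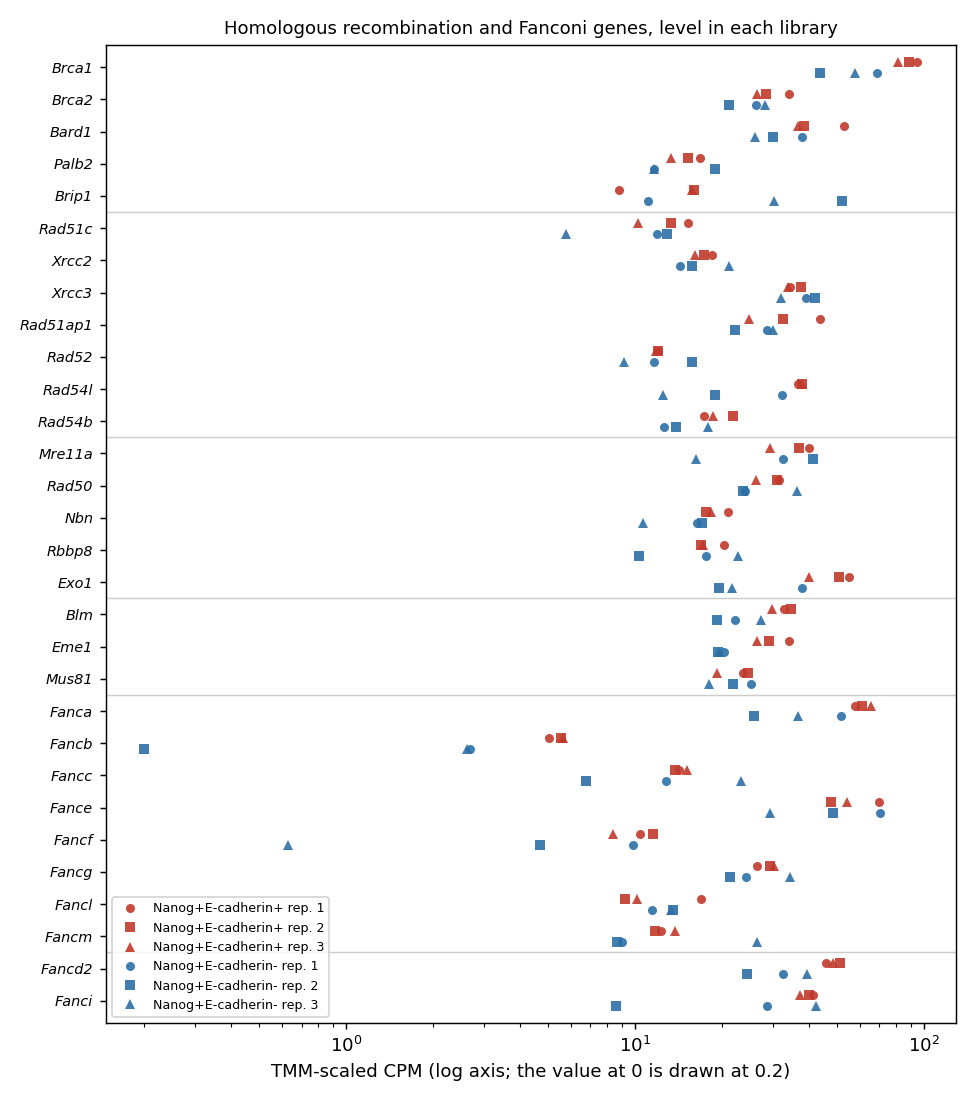
Level of each of the 30 genes in each library as TMM-scaled CPM on a log axis, grouped by role with grey lines between roles. Red symbols are Nanog+E-cadherin+ and blue symbols Nanog+E-cadherin- libraries, and the symbol shape gives the replicate number. Red lies to the right of blue without overlap for 9 genes, and Fancb is at 0 in Nanog+E-cadherin- replicate 2.

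In 9 of the 30 genes every Nanog+E-cadherin+ library was above every Nanog+E-cadherin- library, against 3.74% of all genes tested, and in 0 of the 30 it was the reverse, against 3.25%. The 9 were Brca1, Rad54l, Nbn, Exo1, Blm, Eme1, Fanca, Fancb and Fancd2, which span mediators, end resection, joint molecule processing and the Fanconi pathway. Within the pairs, 13 of 30 were higher in all 3, against 18.9% of all genes. The other 4 were Bard1, Rad51c, Rad54b and Fancf. On the scale of TPM, a level per length, 10 of the 30 were higher in all 3 pairs. The share of all genes was not worked out on that scale. Only Brip1 was lower in all 3 (1 of 30, against 17.3% of all genes). The median log2 ratio over the 30 genes was 0.38 in the pair numbered 1, where the receptor gene sums were low, 0.45 in the pair numbered 2 and 0.16 in the pair numbered 3.

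**Figure D2:**
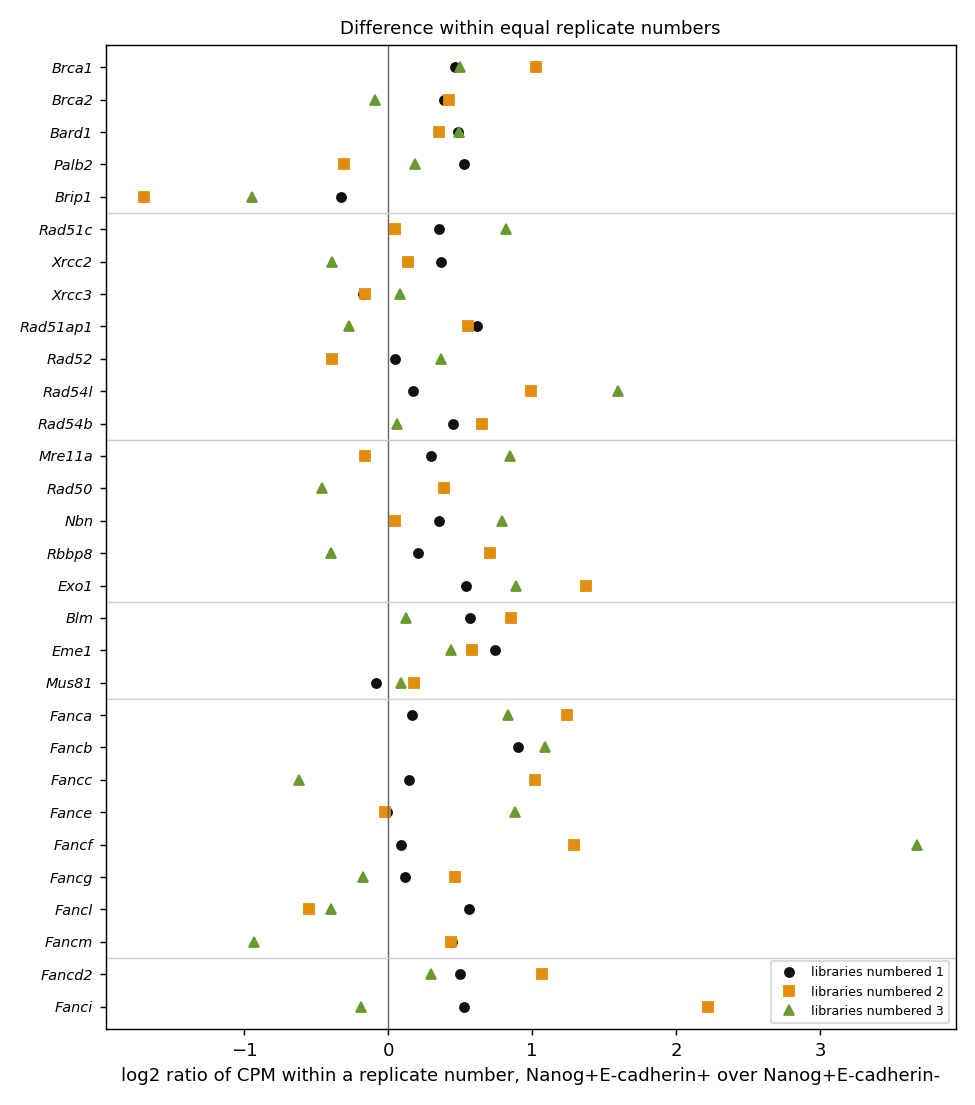
Log2 ratio of Nanog+E-cadherin+ to Nanog+E-cadherin- CPM within libraries of equal replicate number, for each gene. Black circles, orange squares and green triangles are the libraries numbered 1, 2 and 3. Symbols lie right of 0 in all 3 pairs for 13 genes and left of 0 in all 3 for Brip1. The Fancb ratio of number 2 is not drawn, because its denominator library was at 0.

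Levels between genes were compared per length, as the authors' TPM. Fance, a core complex subunit that bridges to FANCD2, had the highest mean TPM of the 30 over all 6 libraries, at 50.2 ± 3.69 in Nanog+E-cadherin+ and 45.0 ± 9.79 in Nanog+E-cadherin- cells (SD, n = 3 each). Rad51ap1 (32.1 ± 5.81 and 28.4 ± 8.01 TPM) and the strand exchange gene Xrcc3 (26.4 ± 7.40 and 29.8 ± 7.24 TPM) followed, and these 2 did not differ beyond their spread. By the mean over all 6 libraries, the lowest were Fancb, with 3.31 ± 0.971 and 1.21 ± 1.18 TPM, Fancm, with 2.88 ± 0.736 and 3.83 ± 3.25 TPM, and Brca2, with 4.89 ± 0.757 and 4.50 ± 1.28 TPM. In Nanog+E-cadherin+ cells alone Brip1, at 3.63 TPM, was below Brca2. Brca1 stood at 23.4 ± 4.95 and 15.8 ± 3.08 TPM, so its transcript was several times as abundant per length as that of Brca2 in both groups.

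Promoter sequence was searched for letters bound by cell cycle regulators in other systems. Windows of 250 bases before and 50 after the RefSeq start (GRCm38.p6) were at hand for 23 of the 30 genes. The E2F letters TTTCCCGC, TTTCGCGC, TTTGCCGC and TTTGGCGC, on either strand, occurred in 4 of these 23 genes (17.4%) and in 2.26% of 32851 windows of all genes. CCAAT, the letters of factor NF-Y, occurred on either strand in 14 of the 23 (60.9%) and in 37.4% of all windows. TTTGAA or TTCGAA, the letters of the cell cycle homology region, occurred in 2 of the 23 (8.7%) and in 19.2% of all windows. A gene was counted if any of its windows held the letters, while the share over all genes is per window, so the 2 shares differ in unit. The motifs do not contain one another, and a match is a description of letters, not of a bound site. Shown are the 250 bases before the start for Brca1, the mediator whose groups did not overlap, and for 3 of the 4 genes with E2F letters, with E2F and CCAAT letters in capitals. The windows are chr11:101551956-101552205 (minus strand), chr1:71102973-71103222 (minus strand), chr5:150522371-150522620 (plus strand) and chr4:43010302-43010551 (minus strand) of GRCm38.p6. The files were made on mm9, so these positions apply to GRCm38.p6 only.
Brca1: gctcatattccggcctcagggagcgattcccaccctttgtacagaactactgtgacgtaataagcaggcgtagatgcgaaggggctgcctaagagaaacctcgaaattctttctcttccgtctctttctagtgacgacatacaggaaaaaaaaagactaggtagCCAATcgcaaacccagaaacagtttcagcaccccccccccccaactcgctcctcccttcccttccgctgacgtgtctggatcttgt
Bard1: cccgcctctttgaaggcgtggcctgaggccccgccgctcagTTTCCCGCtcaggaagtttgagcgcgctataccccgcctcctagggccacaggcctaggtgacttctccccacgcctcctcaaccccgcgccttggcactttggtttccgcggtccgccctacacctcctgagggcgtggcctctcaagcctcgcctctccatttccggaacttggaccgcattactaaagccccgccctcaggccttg
Brca2: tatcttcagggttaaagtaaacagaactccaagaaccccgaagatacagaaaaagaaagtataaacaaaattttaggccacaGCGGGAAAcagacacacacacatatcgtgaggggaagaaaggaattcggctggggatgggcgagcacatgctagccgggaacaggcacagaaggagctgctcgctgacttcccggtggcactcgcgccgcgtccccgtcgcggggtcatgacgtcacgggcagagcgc
Fancg: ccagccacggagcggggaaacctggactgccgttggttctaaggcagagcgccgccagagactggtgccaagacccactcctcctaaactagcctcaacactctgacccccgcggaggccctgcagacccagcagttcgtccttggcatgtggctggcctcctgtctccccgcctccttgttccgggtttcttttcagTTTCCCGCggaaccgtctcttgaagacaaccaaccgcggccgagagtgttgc
The E2F letters begin 209 bases before the start in Bard1, 168 in Brca2 and 52 in Fancg, and the CCAAT letters 86 before it in Brca1.

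Among the mediators, Brca1 and its ring-domain partner Bard1 were higher in every pair, while the helicase gene Brip1 (FANCJ) was lower in every pair. Brca1 stood at 94.4, 88.6 and 81.3 CPM in the Nanog+E-cadherin+ libraries and at 68.6, 43.6 and 57.5 CPM in the Nanog+E-cadherin- ones. All 3 Nanog+E-cadherin+ libraries were above the highest of the other group. Its fitted log2 fold change of 0.64 ± 0.23 (SE) had an unadjusted p of 0.0277 in edgeR (adjusted 1, as for all 30 genes), and it was 0.36 without Nanog+E-cadherin- replicates 2 and 3, which leaves 1 library in that group here and below. Bard1 was at 52.9, 38.3 and 36.6 CPM against 37.9, 29.96 and 26.0 CPM. Its groups overlapped, because Nanog+E-cadherin- replicate 1 was above Nanog+E-cadherin+ replicate 3, and the log2 fold change was 0.44 ± 0.26, or 0.17 without Nanog+E-cadherin- replicates 2 and 3. Brca2, a mediator that acts on resected single strands, was at 34.2, 28.4 and 26.4 CPM against 26.2, 21.1 and 28.2 CPM, with a log2 fold change of 0.24 ± 0.25. Palb2, the link between BRCA1 and BRCA2, had means of 15.1 ± 1.75 and 14.1 ± 4.23 CPM (SD, n = 3 each), and its groups overlapped.

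Brip1 went the other way, and its value rests on 2 libraries. It stood at 8.81, 16.0 and 15.7 CPM in the Nanog+E-cadherin+ libraries and at 11.1, 51.9 and 30.3 CPM in the Nanog+E-cadherin- ones. The 2 high libraries are the same ones in which the receptor genes were high, and the other 4 lay between 8.81 and 16.0 CPM. The log2 fold change was -1.20 ± 0.56 (SE), with an unadjusted p of 0.0661 in edgeR's main test and 0.00896 with the block (adjusted 0.284). It was -0.60 without Nanog+E-cadherin- replicate 2, and 0.28, on the other side of 0, without both. A total of 273 bases of the Brip1 transcript (3.94%) lie in words of 31 bases that 10 or more other genes share. Rad51c (4.49%), Xrcc2 (3.14%), Xrcc3 (2.68%), Exo1 (2.66%), Bard1 (2.46%) and Fancm (0.412%) also hold such sequence, and the other 23 genes hold none. The part of such shared sequence in the Brip1 value was not tested.

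**Figure D3:**
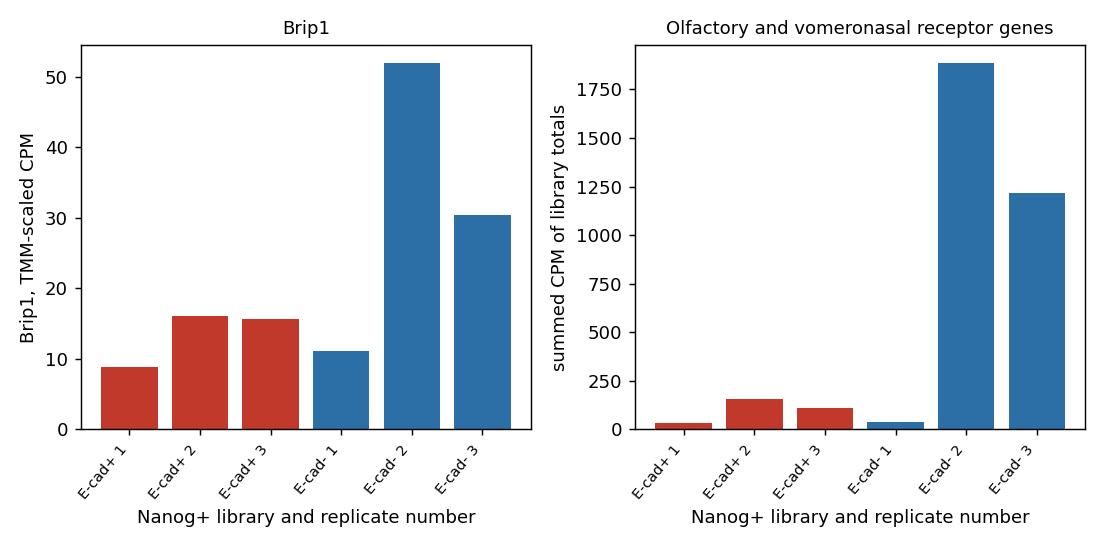
Brip1 level (left, TMM-scaled CPM) and the summed level of 1446 olfactory and vomeronasal receptor genes (right, CPM of library totals), 1 bar per library with the replicate number. Red bars are Nanog+E-cadherin+ and blue bars Nanog+E-cadherin- libraries. Both quantities are highest in Nanog+E-cadherin- replicates 2 and 3.

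Of the 7 genes of strand exchange, Rad54l had the largest fitted value. Rad54l, a DNA motor of strand exchange, stood at 36.5, 37.8 and 37.8 CPM in the Nanog+E-cadherin+ libraries and at 32.3, 19.0 and 12.5 CPM in the Nanog+E-cadherin- ones. The first group was nearly constant and the second spread widely, without overlap. Rad54l had a log2 fold change of 0.81 ± 0.36 (SE), but 0.20 without Nanog+E-cadherin- replicates 2 and 3. Its close relative Rad54b was at 17.2, 21.8 and 18.6 CPM against 12.6, 13.9 and 17.8 CPM, with a slight overlap, and had a log2 fold change of 0.38 ± 0.29. Rad51ap1, which stimulates strand exchange, was at 43.7, 32.5 and 24.8 CPM against 28.5, 22.1 and 30.02 CPM, higher in 2 of 3 pairs. Rad51c had means of 12.9 ± 2.52 and 10.2 ± 3.86 CPM (SD, n = 3 each) and was higher in all 3 pairs. Xrcc2, Xrcc3 and the annealing protein gene Rad52 had log2 fold changes of 0.02 ± 0.29, -0.09 ± 0.22 and -0.03 ± 0.35 (SE), each smaller than its error.

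In end sensing and resection, Exo1 had a larger fitted value than the genes of the break-sensing complex, a difference that was not tested. Exo1, the exonuclease of long-range resection, was at 54.9, 50.8 and 40.1 CPM in the Nanog+E-cadherin+ libraries and at 37.7, 19.6 and 21.6 CPM in the Nanog+E-cadherin- ones. The groups did not overlap, and Nanog+E-cadherin- replicate 1 came closest to the other group. Its log2 fold change of 0.88 ± 0.32 (SE), 1.84-fold, had the smallest p of the 30 in edgeR's main test (unadjusted 0.0259). Without Nanog+E-cadherin- replicates 2 and 3 it was 0.36, and DESeq2 with the block, which called it, fitted all 6 libraries. Of the sensing complex, Nbn was at 20.9, 17.6 and 18.3 CPM against 16.3, 17.0 and 10.6 CPM, a log2 fold change of 0.37 ± 0.31, or 0.21 without Nanog+E-cadherin- replicates 2 and 3. Nbn did not overlap between groups, though its pair numbered 2 was nearly equal. Mre11a, the nuclease, and Rad50, its ATPase partner, had log2 fold changes of 0.24 ± 0.36 and 0.08 ± 0.27. Rbbp8, the cofactor that starts resection, had 0.11 ± 0.36. All 3 overlapped between groups, and each was lower in 1 of the 3 pairs.

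In joint molecule processing, 2 of the 3 genes were higher without overlap. Eme1, which makes the active nuclease with MUS81, was at 34.0, 29.0 and 26.4 CPM in the Nanog+E-cadherin+ libraries and at 20.3, 19.3 and 19.5 CPM in the Nanog+E-cadherin- ones. The Nanog+E-cadherin- libraries were close to each other, and the log2 fold change was 0.60 ± 0.24 (SE) with all libraries and 0.55 without those 2. Its unadjusted p was 0.0402 in edgeR. Its partner Mus81 had means of 22.5 ± 2.90 and 21.6 ± 3.52 CPM (SD, n = 3 each) and a log2 fold change of 0.05 ± 0.27. Blm, the helicase that dissolves double junctions, was at 32.8, 34.6 and 29.8 CPM against 22.1, 19.1 and 27.3 CPM, without overlap. Its log2 fold change was 0.50 ± 0.25, and 0.55 without Nanog+E-cadherin- replicates 2 and 3.

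**Figure D4:**
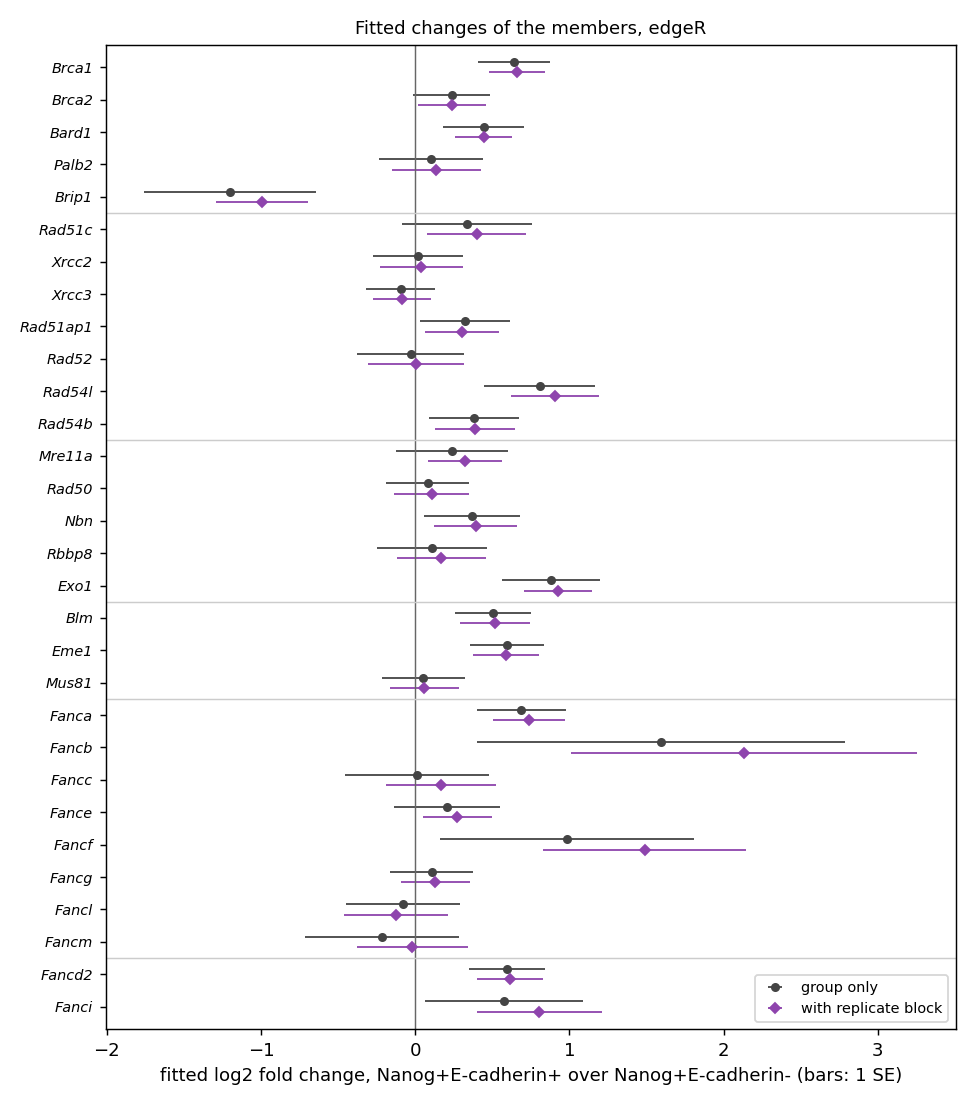
Fitted log2 fold change of each gene with 1 SE, Nanog+E-cadherin+ over Nanog+E-cadherin-, from edgeR with group only (grey circles) and with the replicate block (purple diamonds). No gene passed an adjusted p of 0.05 in either fit, and 25 of 30 group-only values are above 0.

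Among the 8 genes of the Fanconi core complex, Fanca and Fancb were higher without overlap. Fanca, its scaffold, was at 57.6, 60.8 and 65.5 CPM in the Nanog+E-cadherin+ libraries and at 51.4, 25.7 and 36.7 CPM in the Nanog+E-cadherin- ones. The groups did not overlap, but the pair numbered 1 differed little. Fanca had a log2 fold change of 0.69 ± 0.29 (SE, unadjusted p = 0.0455 in edgeR) and of 0.25 without Nanog+E-cadherin- replicates 2 and 3. Fancg, the adaptor of the complex, Fance and Fancc had log2 fold changes of 0.11 ± 0.27, 0.21 ± 0.34 and 0.01 ± 0.47. Fancl, the ubiquitin ligase subunit, and Fancm, the translocase that anchors the complex to DNA, had -0.08 ± 0.37 and -0.22 ± 0.50. All 5 overlapped between groups. Fancm was at 26.3 CPM in Nanog+E-cadherin- replicate 3 and between 8.66 and 13.8 CPM in the other 5 libraries.

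Fancb and Fancf, both of low level, had the largest positive fitted values and the largest errors. Fancb, an X-linked core subunit, had 91, 73 and 112 counts in the Nanog+E-cadherin+ libraries, and 95, 0 and 25 in the Nanog+E-cadherin- ones. As CPM these were 5.01, 5.52 and 5.61 against 2.67, 0 and 2.62, without overlap. A count of 0 in Nanog+E-cadherin- replicate 2 allows up to 0.26 CPM (3 counts, counting error only), so Fancb was at least 21.2-fold higher in Nanog+E-cadherin+ replicate 2 than there. The fit gave a log2 fold change of 1.59 ± 1.195 (SE), which depends on how a 0 is handled. It was 1.02 without that library and 1.003 without Nanog+E-cadherin- replicates 2 and 3. Fancf, an intronless core subunit gene, was at 10.4, 11.5 and 8.36 CPM against 9.79, 4.67 and 0.630 CPM, the last from 6 counts. Its log2 fold change of 0.99 ± 0.83 was 0.04 without Nanog+E-cadherin- replicates 2 and 3, which leaves 1 library in that group.

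The 2 genes of the ID2 complex, the substrate of the core ligase, were compared side by side. Fancd2 was at 45.9, 51.3 and 48.3 CPM in the Nanog+E-cadherin+ libraries and at 32.6, 24.4 and 39.4 CPM in the Nanog+E-cadherin- ones. The groups did not overlap, and the difference had the same direction in all 3 pairs. Fancd2 had a log2 fold change of 0.60 ± 0.25 (SE, unadjusted p = 0.0457 in edgeR) and of 0.57 without Nanog+E-cadherin- replicates 2 and 3. Fanci was at 41.1, 40.1 and 37.3 CPM against 28.6, 8.57 and 42.4 CPM. Nanog+E-cadherin- replicate 2 was low and replicate 3 was above all others, so the groups overlapped. The log2 fold change was 0.58 ± 0.51, 0.16 without Nanog+E-cadherin- replicate 2 and 0.46 without its replicates 2 and 3.

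In GENCODE M21, 10 of the 30 genes have exons that overlap exons of an opposite-strand gene listed in the files, and whether counting used strand is not given in the sources used here. Among these, overlaps were longest for Rad54l with Lrrc41 (1184 exon bases), Fanci with Polg (921) and Fanca with Zfp276 (920). The partners had log2 fold changes of 0.12 ± 0.20, 0.03 ± 0.23 and -0.12 ± 0.29 (SE). These values were nearer to 0 than those of the 3 members, and reads of a gene and its partner cannot be told apart without strand. Longer overlaps were those of Rad54b with the same-strand gene Fsbp (2068 exon bases) and of Fancc with the opposite-strand Gm16133 (1373), partners not analysed here.

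Further pathway genes were taken from a list by function. Of 64 further genes of recombination, Fanconi repair and checkpoint signalling on it, 55 were in the files, and all 55 were tested. In edgeR's test 0 passed with group only or with the block, and at an unadjusted p under 0.05 there were 2 higher and 0 lower with group only and 12 higher and 0 lower with the block. The median log2 fold change was 0.28, with 41 of 55 above 0, against 48.5% of all genes. Higher in all 3 pairs were 29 of 55, against 18.9% of all genes. Rpa1, the large subunit of the main single-strand binding protein, had means of 242 ± 23.6 and 166 ± 47.6 CPM (SD, n = 3 each) without overlap.

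The genes named from that list, Rpa1 among them, were those of smallest blocked p, so they do not stand for the list. Ube2t, the conjugating enzyme that serves FANCL, had means of 26.9 ± 12.1 and 13.8 ± 6.48 CPM, and a blocked log2 fold change of 0.98 ± 0.24 (SE, adjusted p = 0.188 in edgeR). Usp1, which removes ubiquitin from FANCD2, had 98.1 ± 12.5 and 69.6 ± 19.8 CPM. Rad18, a ubiquitin ligase at stalled forks, had 20.3 ± 0.349 and 11.7 ± 3.54 CPM without overlap. H2afx, the histone variant phosphorylated at breaks, had 350 ± 201 and 187 ± 132 CPM and the smallest blocked p of the list (log2 fold change 1.02 ± 0.20, adjusted p = 0.113 in edgeR). DESeq2 with the block called 3 of the 55, among them Rpa1 and H2afx (adjusted p = 0.0217 and 2.4e-05), against 2.26% of all genes in either direction and 1.37% higher.

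End joining, which ligates breaks without a template, was compared as the other main repair route. Of its 16 genes, all tested, 9 were fitted above 0, against 48.5% of all genes, and the median log2 fold change was 0.09. Its medians were 0.14, 0.06 and 0.25 in the pairs numbered 1, 2 and 3, below those of the 30 genes in the first and second pair and above in the third. In edgeR's test 0 passed with group only, against 0% of all genes. There 0 had an unadjusted p under 0.05, against 1.08% of all genes higher and 1.58% lower. With the block 0 passed, against 0.305% of all genes, and 1 was higher and 1 lower at that p, against 5.51% and 5.19%. Trp53bp1, which restrains resection and favours end joining, was at 167.7, 244.7 and 203.8 CPM in the Nanog+E-cadherin+ libraries and at 305, 308 and 249.5 CPM in the Nanog+E-cadherin- ones. It was the 1 gene of the 16 whose libraries were lower without overlap, against 3.25% of all genes. Its log2 fold change was -0.49 ± 0.23 (SE). The blocked fit in edgeR gave it an adjusted p of 0.312. Prkdc, the catalytic kinase of end joining, was higher without overlap at 28.3 ± 2.05 against 19.3 ± 3.80 CPM, and the polymerase gene Poll had 44.7 ± 3.91 against 33.0 ± 12.1 CPM (SD, n = 3 each). The difference between the recombination and end joining lists was not tested.

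**Figure D5:**
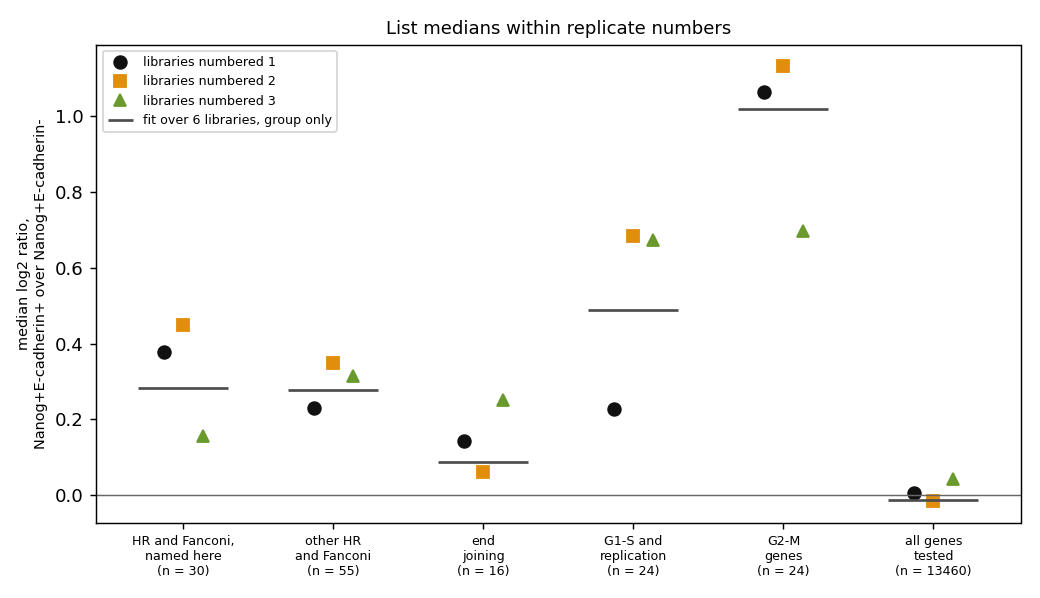
Median log2 ratio of Nanog+E-cadherin+ to Nanog+E-cadherin- over each gene list, within libraries of equal replicate number (symbols) and in the fit over 6 libraries with group only (lines). The recombination and Fanconi genes lie at 0.38, 0.45 and 0.16 in pairs 1 to 3, below the G2-M genes and above the median of all genes in each pair.

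Medians of the G2-M and of the G1-S genes were above 0, and no gene of either list passed edgeR's group-only test. The 24 G2-M genes summed to 5643, 3995 and 3420 CPM in the Nanog+E-cadherin+ libraries and to 2725, 1988 and 2069 CPM in the Nanog+E-cadherin- ones, without overlap, and had a median log2 fold change of 1.02. In edgeR 0 of these 24 passed with group only and 10 of 24 with the block, against 0% and 0.305% of all genes. Without overlap 18 of 24 were higher, against 3.74% of all genes. DESeq2 with the block called 19 of 24, against 2.26%. The 24 G1-S and replication genes summed to 5493, 4205 and 3777 CPM against 4568, 3363 and 2768 CPM, with overlap, and had a median of 0.49. Of these, 0 of 24 passed with group only or with the block in edgeR, and 19 of 24 were higher in all 3 pairs, against 18.9% of all genes. At an unadjusted p under 0.05, the blocked edgeR test had 16 higher and 1 lower, against 5.51% and 5.19%. DESeq2 with the block called 8 of these 24, all higher, against 2.26% of all genes in either direction and 1.37% higher. Tyms, a thymidylate synthesis gene picked out after its values were seen, was at 750 and 333 CPM in Nanog+E-cadherin- replicates 2 and 3 and between 109.6 and 151 CPM in the other 4 libraries. In the pair numbered 1 the medians were 1.06 for G2-M, 0.23 for G1-S and 0.38 for the 30 recombination and Fanconi genes. In the pair numbered 3 they were 0.70, 0.67 and 0.16. The part of the cell cycle difference in the repair gene values was not tested. Keratinocyte markers also moved with the group: their summed level was 97.3 to 139 CPM in Nanog+E-cadherin+ and 42.6 to 62.1 CPM in Nanog+E-cadherin- libraries, with 3 of 6 above the filter, while Krt5 had at most 2 counts and Krt14 at most 10.4 in any library, and most of the sum came from Perp (102 ± 15.9 against 45.0 ± 14.9 CPM). Their part was not tested. Summed neuron markers were 928, 477 and 281 CPM in the Nanog+E-cadherin+ libraries against 1310, 785 and 448 CPM, lower in all 3 pairs although the groups overlapped. Of these 9 markers 6 were lower in all 3 pairs, against 17.3% of all genes. With the block 1, Tubb3, passed (adjusted p = 0.037 in edgeR), against 0.305% of all genes. Summed astrocyte markers were 267, 853 and 1450 CPM against 203, 737 and 1130 CPM, higher in all 3 pairs. Of these 6 markers 3 were higher in all 3 pairs, against 18.9% of all genes. Their part in the repair gene values was not tested. Summed neural stem cell, oligodendrocyte and fibroblast markers went both ways between pairs.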

How the data were processed

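RNA-seq of 6 libraries in 2 sorted groups of 3 was used, and the titles gave group and replicate. As the submitters' processing notes list them, Bowtie and RSEM 1.2.4 were used; the build was mm9, per the submitters' processing notes. Alignment settings and strand: not given in the sources used here. Per the file headers, the authors deposited an expected count, a TPM and an FPKM per gene and library. Expected counts were rounded and tested in edgeR 4.0.16 (R 4.3.3) with TMM, the filterByExpr filter and a quasi-likelihood fit on group. The filter was set to a minimum count of 10, not required in every library, and a minimum total of 15. P-values were adjusted over all tested genes by Benjamini-Hochberg, at 0.05. The authors' TPM values served for levels between genes and, as log2(TPM + 1) and log2(TPM + 0.1) in limma 3.58.1, as alternatives. FPKM was not used. CPM values are TMM-scaled, except sums over receptor and marker genes, which use library totals. Pair ratios used a prior count of 0.5.

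The labels do not say that a replicate number marks a shared culture. Deviations from the group means correlated at 0.708, 0.378 and 0.428 between same-numbered libraries and at most at 0.092 otherwise, so the numbers were treated as pairs. Blocked values stand beside a result where they change a count or chose the genes named. Shared sequence was counted as words of 31 bases over GENCODE M21 transcripts, matched to all 30 genes by RefSeq accession. The fits were tested on simulated data. DESeq2 1.42.0 and limma-voom were alternatives. The 30 genes, the lists, and the rule for named genes (all 30, then by smallest blocked p in the other lists) were chosen with earlier results of these data known, so no list was given a test of its own. Of the genes this rule names, 1 is not reported here.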

Additional observations from a re-analysis of the deposited data

How the results depend on the processing

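The count of recombination and Fanconi genes called was also 0 in edgeR with the replicate block (also as a robust fit, added after seeing the data). It was 0 with DESeq2 size factors, library totals or no filter, in DESeq2 with group only, limma-voom and limma on either TPM scale. Over all genes, calls numbered 41 with the block, 38 in its robust fit, 21 in DESeq2 with group only and 1 with no filter. The other settings named called 0 of all genes, so a count of 0 does not set the 30 apart there. DESeq2 with group only gave no adjusted p for 27 of the 30 genes. DESeq2 with the replicate block called 1 of the 30 and 3 of the 55 further pathway genes, against 2.26% of all genes. Without both libraries numbered 3, the replicate block called 4 of the 30 (Brca1, Exo1, Fancd2 and Fanci), 5 further pathway genes and 1 end joining gene, among 449 calls over all genes, and the median of the 30 was 0.44. Without both numbered 1 or both numbered 2 it called 0 of the 30 and 1 further pathway gene each, among 182 and 140 calls over all genes. The shares of all genes tested were not worked out for these fits, so their counts are not set against a background. Why these fits differ was not tested. In edgeR with all 6 libraries, the replicate block changed no call in these 3 lists and took the calls over all genes from 0 to 41. Leaving out each single library gave counts of 0 to 0 for all 3 lists, in fits that called 0 of all genes. The median of the 30 was then from 0.16 to 0.41, lowest without Nanog+E-cadherin+ replicate 1. The median of 0.28 was 0.31 with the replicate block, 0.24 without Nanog+E-cadherin- replicates 2 and 3, and 0.33 without Brip1 (added after seeing the data). The fitted sign was the same in all 20 settings for 17 of the 30 genes. The lowest counts of any of the 30 genes in a library were 0 for Fancb and 6 for Fancf, in 1 library each.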

Other observations

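Genes of meiotic recombination, which uses its own recombinase and synaptic proteins, were looked up in the same libraries. This list was chosen after the data were seen. Of its genes 13 were in the files, and 6 of these passed the filter. Transcripts of the meiotic recombinase Dmc1 had 15, 8 and 4 counts in the Nanog+E-cadherin+ libraries, and 40, 0 and 0 in the Nanog+E-cadherin- ones. The initiating nuclease gene Spo11 had at most 6 counts in any library and the synaptonemal complex gene Sycp1 at most 22, the latter in Nanog+E-cadherin- replicate 2 alone. Psmc3ip and Mnd1, whose products form a partner complex of DMC1, were well measured. Psmc3ip stood at 67.9 and 38.1 TPM on average (Nanog+E-cadherin+ first), with a log2 fold change of 0.85 ± 0.59 (SE). It was higher in all 3 pairs, and with the replicate block the log2 fold change was 1.03 ± 0.24. Its adjusted p was then 0.179 in edgeR and 0.0252 in DESeq2. DESeq2 with the block called only this 1 of the 6 genes, against 2.26% of all genes. Mnd1 stood at 47.6 and 46.5 TPM, and its log2 fold change was 0.18 ± 0.31. Rec8, Prdm9 and Msh5 also passed the filter, with log2 fold changes of 0.11 ± 0.86, -0.14 ± 0.43 and -0.54 ± 0.56.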
